A study of Mus musculus with 56 samples.

Results

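The messenger RNA of 9 cytokine genes was followed in monocytes and macrophages sorted from injured mouse tissue: Tnf, Il1a, Il1b, Il1rn, Il6, Il10, Il18, Osm and Il12b. They were taken as the rows that carry these names in both deposited count tables. All 9 were found, of 49045 genes that the tables share, and all 9 were expressed highly enough to be tested in every tissue. In bone Il10 was so through its control libraries alone. Depleted cells came from Foxp3 DTR/GFP mice, in which the diphtheria toxin receptor is driven by the Foxp3 locus and the toxin removes regulatory T cells (Tregs). Control cells came from wild-type C57BL/6J mice, which lack the receptor and keep their Tregs. Every mouse, depleted or control, received 20 ng/g diphtheria toxin and was 10 weeks old, so the arms differ in genotype as well as in Tregs, and these cannot be told apart. Each mouse had 1 injury: a myocardial infarction, a hole in the skull, volumetric muscle loss or a full-thickness skin punch. Heart gave 3 depleted and 3 control libraries at each of days 4 and 7, bone 5 and 5 at day 7 and 3 and 3 at day 10, muscle 3 and 3 at each of days 4 and 7, and skin 4 and 4 at each of days 4 and 7. Bone days are those of the sample labels; the series text gives days 4 and 7 for bone as well. The heart columns used as day 7 name no day and were taken as day 7 because the others name day 4.

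TNF and the IL-1 family start inflammation after injury: TNF is made as a membrane protein and shed, while IL-1β and IL-18 are made as precursors that an inflammasome protease cuts. IL-1α and IL-1β act on the same receptor, which the IL-1 receptor antagonist, encoded by Il1rn, occupies without signalling. IL-6 and oncostatin M, encoded by Osm, signal through the shared chain gp130 and act on stromal cells, liver and T cells. IL-10 restrains macrophages through STAT3 and is made by macrophages as well as by Tregs, and Il12b encodes the p40 chain shared by IL-12 and IL-23. Many of these genes are switched on through NF-kappaB, and their messages are often removed quickly through AU-rich elements in the 3′ untranslated region, to which the decay factor tristetraprolin binds.

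Promoter windows of 300 bases, from 250 bases before to 50 after the annotated start, were matched for 7 of the 9 members (RefSeq, GRCm38.p6). Il10 and Osm were not matched. An NF-kappaB motif, GGG then 3 bases of any kind then TTCC, searched on both strands, was present in 5.56% of 32851 such windows of the mouse genome. Among the members matched, it was present in the window of Il6, the member that was higher in depleted cells most often, and in all 3 windows of Il1rn, a member that went opposite ways in bone and muscle. These windows are printed for that reason, with the motif in capitals, on the plus strand at chr5:30012864-30013163 for Il6 and at chr2:24345121-24345420 for Il1rn. The motif starts 44 bases before the annotated start of Il6 and 51 bases before that of Il1rn. The Il1rn window that begins at 24345041 overlaps the printed one and holds the same site, 29 bases after its own annotated start. The 3 windows of Il1rn thus do not hold 3 separate sites. The windows of Tnf, Il1a, Il1b, Il18 and Il12b do not hold these letters.
Il6: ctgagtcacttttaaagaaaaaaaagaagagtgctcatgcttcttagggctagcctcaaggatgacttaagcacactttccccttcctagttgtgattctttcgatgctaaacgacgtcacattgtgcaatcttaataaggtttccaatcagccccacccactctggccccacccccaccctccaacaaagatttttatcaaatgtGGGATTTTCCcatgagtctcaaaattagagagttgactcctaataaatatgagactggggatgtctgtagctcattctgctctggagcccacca
Il1rn: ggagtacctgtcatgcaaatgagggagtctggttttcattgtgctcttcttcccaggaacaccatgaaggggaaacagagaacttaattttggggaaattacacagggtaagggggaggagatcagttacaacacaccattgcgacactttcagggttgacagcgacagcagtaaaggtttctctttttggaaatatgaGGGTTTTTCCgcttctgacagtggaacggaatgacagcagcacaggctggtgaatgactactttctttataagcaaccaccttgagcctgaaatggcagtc

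The AU-rich pentamer ATTTA was searched on the transcript strand of the 3′ untranslated regions of GENCODE mouse release 21 (GRCm38). The longest region of the principal transcripts of each gene was used. At least 1 pentamer was found in 62.8% of 20739 genes and in 8 of the 9 members, Il1rn being the exception with 0 in 1864 bases. Tnf held 8 pentamers in 764 bases, Il1b 4 in 459, Il6 6 in 427 and Il12b 6 in 797. The nonamer TTATTTATT, which contains the pentamer, was found in 7.13% of genes and among the members in Tnf alone, with 5 copies. The densest stretch of up to 30 bases is shown for these members, because the decay factors that read such sites are among the genes described further on, with the pentamers in capitals.
Tnf: ATTTAttATTTATTTAttATTTATTTA
Il1b: ATTTATTTAtgtATTTA
Il6: ATTTAttgataATTTA
Il12b: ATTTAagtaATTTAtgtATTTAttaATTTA

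Across the 8 comparisons of depleted with control cells, Il6 and Il10 moved apart. Il6 was higher in depleted cells in 5 comparisons and Il10 was lower in 4, and in 4 comparisons both held: bone at days 7 and 10, muscle at day 7 and skin at day 7. None of these 4 kept both calls with each library left out. Those lost were Il10 in bone at both days and in muscle, and Il6 in muscle and skin at day 7. Both bone calls of Il10 were also lost with ribosomal RNA as a covariate, and in bone Il10 entered the test through control libraries alone. Tnf and Il1b were lower in depleted cells at day 7 in bone, muscle and skin, while Osm was higher in skin at day 4 and Il1a and Il1rn were higher in muscle at day 7. Levels are in CPM, the counts of a gene relative to the size of its library, with sizes scaled by TMM, a method that evens out library composition. Changes are log2 fold changes of depleted over control from edgeR's quasi-likelihood test with a standard error (SE), and a gene passed where its p, adjusted over all genes tested in the tissue by the Benjamini-Hochberg method, was under 0.05. The map of changes by gene and comparison shows these values.

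**Figure D1:**
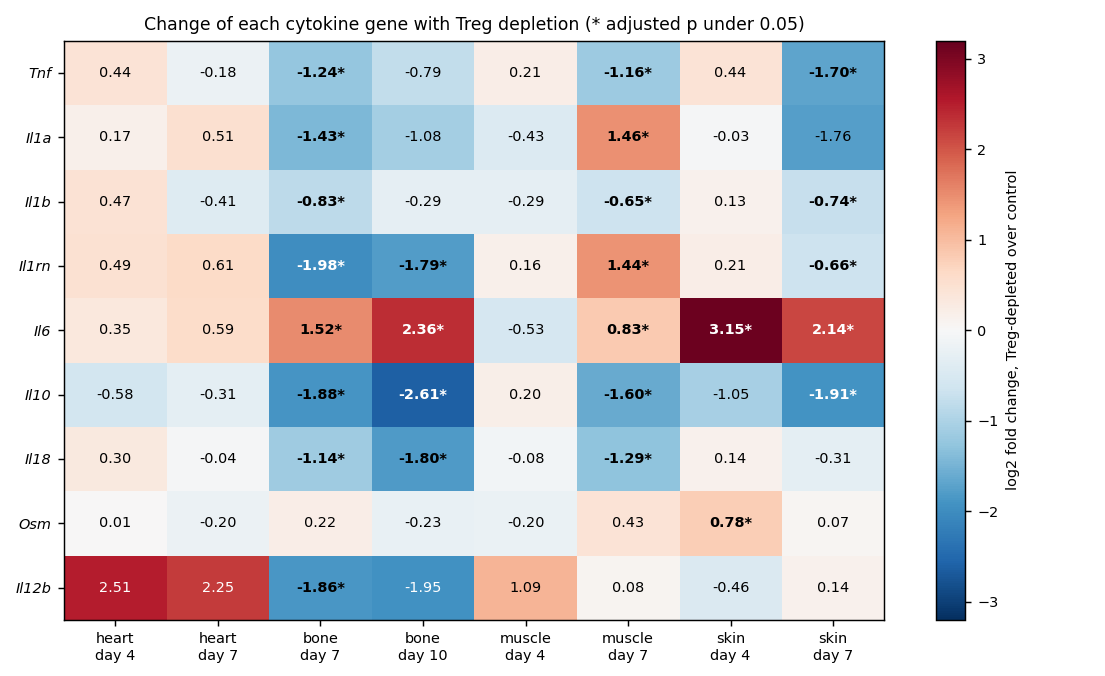
Log2 fold change of Treg-depleted over control cells for 9 cytokine genes (rows) in 8 tissue and day comparisons (columns), with red for higher and blue for lower in depleted cells. Bold values with an asterisk passed at an adjusted p under 0.05, and Il6 has 5 such values above 0 while Il10 has 4 below 0.

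At bone day 7, 1 member was higher and 7 were lower, with a median log2 change of -1.24 over the 9. Of all 12709 genes tested there 23.6% passed, 11% as higher and 12.6% as lower, with a median near 0. Bone day 10 had 1 member higher and 3 lower (median -1.08), where 17.2% of all genes passed, 8.95% as higher and 8.22% as lower. Muscle had 0 members passing at day 4 by edgeR, where 0.155% of all genes passed (0.0542% higher and 0.101% lower), while 1 member (Il6) had an unadjusted p under 0.05 and DESeq2 called 0. At muscle day 7, 3 members were higher and 4 lower (median 0.08), where 8.59% of all genes passed, 4.67% as higher and 3.92% as lower. In skin 2 members were higher and 0 lower at day 4, where 3.57% of all genes passed, 2.12% as higher and 1.45% as lower. At skin day 7, 1 was higher and 4 were lower (median -0.66), where 6.21% of all genes passed, 2.95% as higher and 3.27% as lower. Infarcted heart had 0 members passing at day 4 and 0 at day 7 by edgeR, while 5 and 3 members had an unadjusted p under 0.05 and DESeq2 called 1 at each day. Of all heart genes 11.1% passed at day 4 (4.25% higher and 6.85% lower) and 3.14% at day 7 (1.58% higher and 1.56% lower). The ranges of depleted and control libraries did not overlap for 5, 6, 1 and 8 members in bone at days 7 and 10 and muscle at days 4 and 7, for 2 and 6 in skin at days 4 and 7, and for 3 and 1 in heart at days 4 and 7. How many of all genes lay without overlap was not counted, so these numbers give no result about the members as a set. Levels in each library are shown in the panels by gene.

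**Figure D2:**
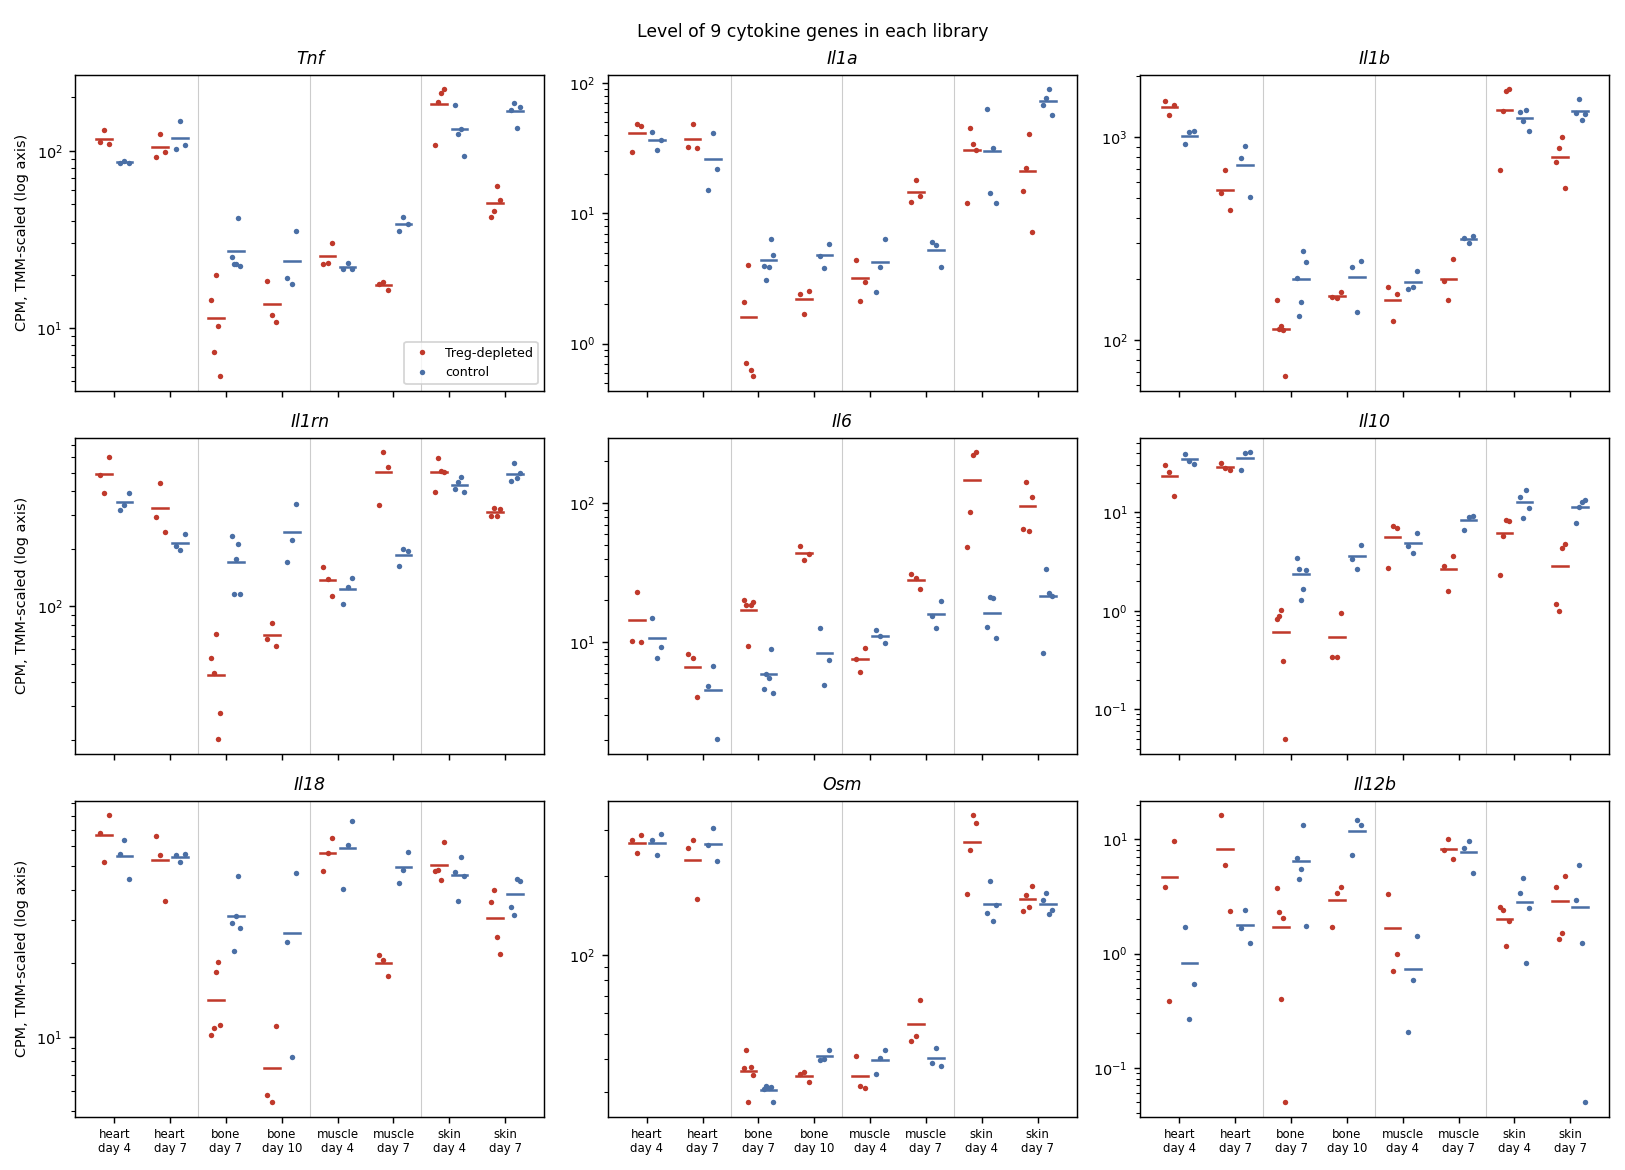
Level of each of 9 cytokine genes in CPM (TMM-scaled, log axis) in every library, with 1 point per library, red for Treg-depleted and blue for control, and a bar at the group mean. Values of 0 are drawn at 0.05, and heart was scaled apart from the other tissues, so its level is not to be set against theirs. Il6 of depleted cells lies above control in bone at both days, muscle at day 7 and skin at both days, and Il10 of depleted cells lies below control in the same groups and in heart at day 4.

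Il6 lies on chromosome 5, 30013114 to 30019981 (GRCm38, plus strand). In skin at day 4 the 4 depleted libraries had 48.1, 86.4, 221 and 234 CPM, against 12.8, 21.2, 20.9 and 10.7 CPM in the 4 controls. All depleted libraries lay above all controls, and the depleted ones differed among themselves by more than the controls did. The log2 change was 3.15 (SE 0.56, adjusted p = 0.00694), an 8.85-fold difference, and it held with each library left out. At day 7 in skin Il6 had 65.2, 142, 63.0 and 111 CPM in depleted cells, against 8.35, 33.8, 22.5 and 21.4 CPM in control cells, again without overlap (log2 change 2.14, SE 0.53, adjusted p = 0.0308). This second skin call was lost without any of depleted libraries 2 and 4 and control libraries 1, 3 and 4, with adjusted p between 0.0693 and 0.0911, and without the filter on low counts (0.071).

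In bone Il6 had 20.1, 18.4, 9.49, 18.6 and 19.4 CPM in depleted cells at day 7, against 4.63, 5.94, 5.52, 9 and 4.36 CPM in control cells. Depleted library 3 stood below the other depleted libraries but still above every control (log2 change 1.52, SE 0.26, adjusted p = 0.000216). By day 10 the depleted bone libraries had 49.4, 39.0 and 43.5 CPM and the controls 12.8, 4.92 and 7.42 CPM (log2 change 2.36, SE 0.33, adjusted p = 0.000131). Within depleted bone the level at day 10 was above that at day 7 (log2 change 1.38, SE 0.26, adjusted p = 0.00214), where 12.2% of all genes passed. The depletion effect itself differed between the days in bone for 0 members by edgeR (1 under an unadjusted p of 0.05, 0 by DESeq2), and 0% of all genes passed that test. In muscle Il6 had 31.3, 28.8 and 24.3 CPM in depleted cells at day 7, against 15.5, 12.7 and 19.7 CPM in control cells (log2 change 0.83, SE 0.22, adjusted p = 0.0205), and that call was lost without any of depleted library 1 and control libraries 1 and 2 (adjusted p = 0.0703, 0.0655 and 0.110). At muscle day 4 Il6 stood at 7.54, 6.12 and 9.13 CPM in depleted cells, against 12.2, 11.1 and 9.94 CPM in control cells, below all controls without passing (log2 change -0.53, SE 0.24, adjusted p = 0.551). In heart the arms overlapped at both days, with log2 changes of 0.35 (SE 0.43) and 0.59 (SE 0.44).

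Markers of mast cells and basophils, which themselves make IL-6, were higher in depleted cells in the comparisons where Il6 was, but not in the same order between tissues. The summed level of 10 such genes (Cpa3, Mcpt4, Mcpt8, Cma1, Tpsb2, Kit, Ms4a2, Fcer1a, Gata2 and Il4) ranged from 174.6 to 741 CPM in depleted and 15.5 to 94.6 CPM in control skin at day 4, with 5 of 10 called higher. In skin at day 7 the sums were 181 to 549 CPM in depleted and 47.8 to 110 CPM in control cells, with 4 called higher. In bone they were 307 to 2490 CPM in depleted and 51.9 to 169 CPM in control cells at day 7, and 1039 to 1903 CPM in depleted and 101 to 291 CPM in control cells at day 10, with 6 called higher at each day and 1 lower at day 10. Muscle had 37.6 to 77.0 CPM in depleted and 9.71 to 11.9 CPM in control cells at day 7, with 2 of 3 genes tested called higher. Muscle at day 4 and heart, where Il6 did not pass, had sums of at most 11.5 CPM. Tpsb2 was at 0 in depleted muscle at day 7, and no marker of the list was at 0 in the bone and skin groups. Among the depleted libraries of skin day 4, the 2 with 221 and 234 CPM of Il6 also had the highest sums, 741 and 689 CPM, while those with 48.1 and 86.4 CPM had 175 and 292. In depleted bone at day 7 the library with the lowest Il6 had the lowest sum, 307 CPM. The order within the other groups is not given here. Between tissues the order differed. The sums were highest in depleted bone, at up to 2490 CPM, where mean Il6 was 17.2 CPM at day 7 and 43.9 CPM at day 10. Depleted skin at day 4 had sums of up to 741 CPM and a mean Il6 of 147 CPM. The part of mast cells and basophils in the Il6 result was not tested. In such bulk samples fewer cells of a type and less RNA per cell cannot be told apart.

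**Figure D3:**
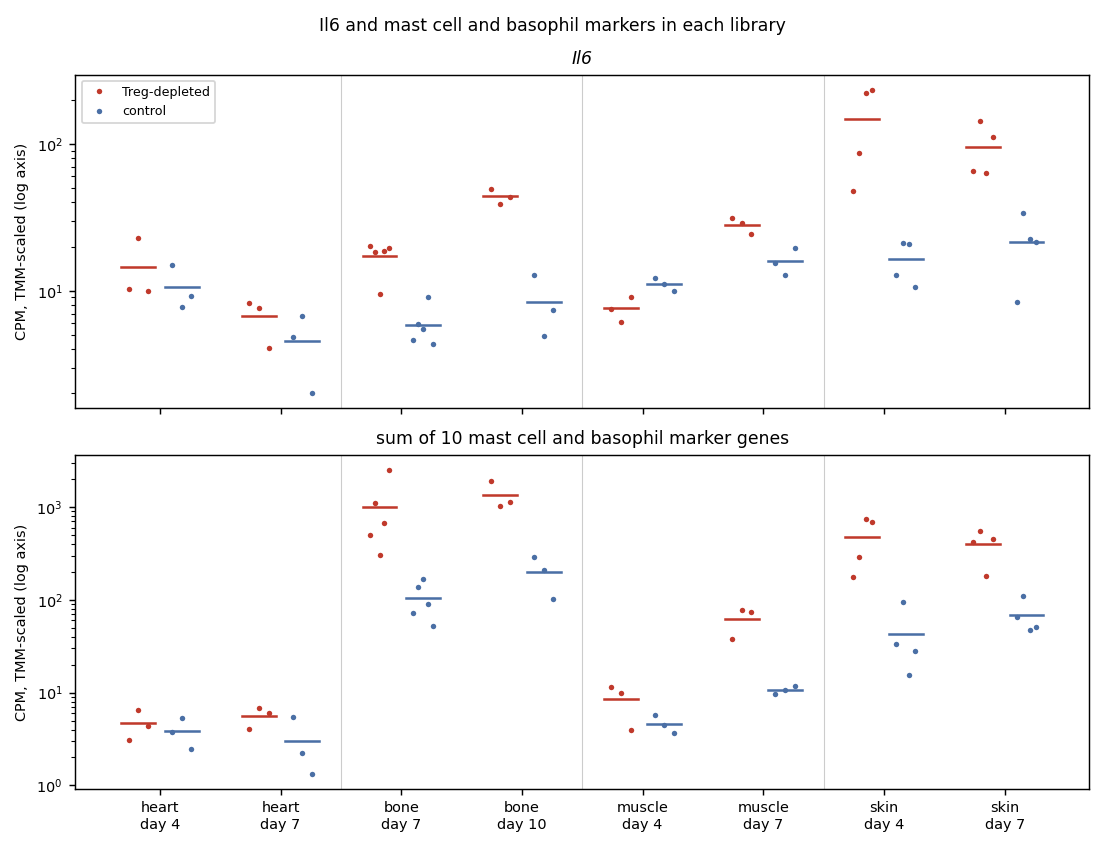
Level of Il6 (top) and the summed level of 10 mast cell and basophil marker genes (bottom) in CPM on log axes for every library, with red points for Treg-depleted and blue for control and a bar at the group mean. In bone, muscle at day 7 and skin the depleted libraries lie above the controls in both panels; in muscle at day 4 the marker sums stay at or under 11.5 CPM.

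Osm, a relative of Il6, was called in 1 of the 8 comparisons. In skin at day 4 it had 170, 250, 342 and 319 CPM in depleted cells, against 144, 192, 135 and 155 CPM in control cells (log2 change 0.78, SE 0.17, adjusted p = 0.00967). The arms overlapped through depleted library 1 and control library 2, and the call held with each library left out. By skin day 7 Osm had 148 to 183 CPM in depleted and 143 to 173 CPM in control cells, and the 95% interval of the log2 change was -0.26 to 0.40. Osm lay between 27.5 and 67.4 CPM in every bone and muscle library. Its log2 change in the other 7 comparisons was -0.23 to 0.43 and did not pass. Of 9 other genes of the IL-6 family and its receptors, Il11ra1, a receptor chain for IL-11, was lower in depleted bone at day 7 (log2 change -0.89) and day 10 (-0.89) and higher in muscle (0.64) and skin (0.71) at day 7. Clcf1, a gp130 cytokine, was lower in bone and skin at day 7 (-1.82 and -1.30). The receptor chains Il6ra and Il6st did not pass in any comparison.

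Il10, on chromosome 1 (131019845 to 131024974, plus strand), was lower in depleted cells in 4 of 8 comparisons and below 0 in 7. In skin at day 7 it had 1.17, 1.00, 4.30 and 4.81 CPM in depleted cells, against 7.81, 11.2, 12.6 and 13.2 CPM in control cells (log2 change -1.91, SE 0.41, adjusted p = 0.00541). The call held with each library left out, and the arms did not overlap. In muscle at day 7 the depleted libraries had 2.82, 1.59 and 3.57 CPM and the controls 6.61, 9.05 and 9.25 CPM (log2 change -1.60, SE 0.40, adjusted p = 0.0151), a call lost without depleted library 2 or control library 2 or 3 (adjusted p = 0.0533 to 0.0560).

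In bone the counts of Il10 behind the change were small. No depleted bone library held more than 5 counts, so Il10 passed the filter on low counts through control libraries alone. A gene admitted in this way can hardly be called higher in depleted cells, which limits both bone calls. Without that filter both still passed. At day 7 the depleted libraries had 0.836, 0.895, 1.01, 0.313 and 0 CPM, from 16 counts in all, and the control libraries had 3.47, 2.66, 1.30, 1.67 and 2.62 CPM, from 43 counts. A count of 0 in depleted library 5 allows up to 0.847 CPM, on 3 counts of its total and for counting error only. The log2 change was -1.88 (SE 0.55, adjusted p = 0.0155) and was lost without control library 1 (adjusted p = 0.0521). At bone day 10 Il10 had 0.343, 0.339 and 0.952 CPM in depleted cells, against 3.39, 2.65 and 4.68 CPM in control cells (log2 change -2.61, SE 0.77, adjusted p = 0.0241), lost without depleted library 1 or 2 or control library 3 (adjusted p = 0.0715 to 0.0952). Depleted cells of skin at day 4 also lay below all controls, with 2.29, 5.8, 8.37 and 8.17 CPM against 14.1, 8.79, 16.7 and 11.0 CPM, but this did not pass (log2 change -1.05, adjusted p = 0.139). In heart the depleted libraries of day 4 had 30.1, 25.3 and 14.7 CPM, against 38.9, 33.2 and 31.0 CPM in control cells (log2 change -0.58, adjusted p = 0.115), and at day 7 the change was -0.31. Muscle at day 4 was the 1 comparison of 8 with a value above 0 (0.20).

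Both IL-10 receptor genes were lower in some comparisons where Il10 was lower, while genes of the response to IL-10 went both ways. Il10ra, the ligand-binding chain, was lower in depleted bone at day 7 (log2 change -0.60) and day 10 (-0.97) and in muscle at day 7 (-0.53), and the second chain Il10rb was lower at day 7 in bone (-1.20), muscle (-0.64) and skin (-0.45). Of 10 genes known to respond to IL-10, 4 were lower and 0 higher in bone at day 7 and 2 lower and 0 higher at day 10. Muscle at day 7 had 2 higher and 1 lower, and skin at day 7 had 1 and 1. The higher genes are not named here. Hmox1, heme oxygenase, was lower in all of these comparisons and was the 1 lower gene of muscle and of skin. Its log2 changes were -2.42 and -1.73 in bone at days 7 and 10, -1.24 in muscle and -1.03 in skin at day 7. Socs3, a brake on STAT3 signalling, was lower in bone at day 7 (-1.32) and did not pass elsewhere.

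Tnf (chromosome 17, 35199381 to 35202007, minus strand) was lower in depleted cells at day 7 in bone, muscle and skin. In skin it had 42.1, 45.7, 63.2 and 52.7 CPM in depleted cells, against 170, 186, 134 and 176 CPM in control cells. Every depleted library lay well below every control (log2 change -1.70, SE 0.22, adjusted p = 3.19e-05). In muscle the 3 depleted libraries had 17.7, 18.2 and 16.4 CPM, against 35.1, 42.6 and 38.8 CPM in the controls (log2 change -1.16, SE 0.18, adjusted p = 0.000366). Bone at day 7 had 14.4, 7.34, 19.8, 10.3 and 5.35 CPM in depleted cells, against 25.2, 22.9, 23.1, 41.7 and 22.2 CPM in control cells (log2 change -1.24, SE 0.30, adjusted p = 0.00505). Control library 4 was the highest there, and all 3 of these calls held with each library left out.

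At day 4 Tnf did not pass in muscle or skin. Depleted skin had 107, 188, 212 and 223 CPM, against 182, 125, 133 and 93.1 CPM in control skin (log2 change 0.44, adjusted p = 0.286). The change at day 7 differed from that at day 4 in skin, by -2.14 on the log2 scale (SE 0.30, adjusted p = 0.00136), where 0.848% of all genes passed. It differed in muscle too, by -1.37 (SE 0.25, adjusted p = 0.0066), where 2.41% of all genes passed. Depleted heart at day 4 had 112, 130 and 109 CPM of Tnf, against 85.5, 87.5 and 85.3 CPM in control heart, all higher without passing (log2 change 0.44, SE 0.15, adjusted p = 0.0567). That value passed with another scaling (RLE, adjusted p = 0.0406) and with DESeq2 (adjusted p = 0.0417). Among 6 genes of TNF receptors and adaptors, Tnfrsf1b, the receptor of leukocytes, was lower in depleted bone at day 7 (log2 change -0.67) and day 10 (-0.70) and in muscle at day 7 (-0.54).

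Il1b (chromosome 2, 129364570 to 129371139, minus strand) was lower in depleted cells at day 7 in the same 3 tissues as Tnf. Skin had 756, 883, 1003 and 565 CPM in depleted cells, against 1315, 1554, 1225 and 1310 CPM in control cells (log2 change -0.74, SE 0.21, adjusted p = 0.0447). All 4 depleted libraries lay below all controls, yet the call was lost without any 1 of 7 of the 8 day 7 libraries (adjusted p = 0.061 to 0.131), depleted library 3 being the exception. Muscle had 195, 158 and 250 CPM in depleted and 321, 303 and 325 CPM in control cells (log2 change -0.65, SE 0.16, adjusted p = 0.0169), lost without depleted library 2 or control library 1 or 3 (adjusted p = 0.05 to 0.0609). Bone had 158, 113, 118, 112 and 66.4 CPM in depleted and 202, 131, 153, 274 and 242 CPM in control cells, with an overlap (log2 change -0.83, SE 0.22, adjusted p = 0.00973). An antisense gene, Il1bos, overlaps Il1b, and whether counting used strand is not given in the sources used here.

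Il1a (chromosome 2, 129299610 to 129309972, minus strand), which makes a form of IL-1 released by damaged cells, went in different directions by tissue. In muscle at day 7 it had 12.2, 18.0 and 13.6 CPM in depleted cells, against 5.99, 5.76 and 3.88 CPM in control cells (log2 change 1.46, SE 0.34, adjusted p = 0.01, but 0.0528 without control library 3). In bone at day 7 the depleted libraries had 2.09, 0.716, 4.04, 0.626 and 0.563 CPM and the controls 3.93, 3.07, 3.90, 6.33 and 4.80 CPM, with an overlap through depleted library 3 (log2 change -1.43, SE 0.47, adjusted p = 0.0312). That bone call was lost without depleted library 2, 4 or 5 or control library 4 or 5 (adjusted p = 0.0512 to 0.0808). Skin at day 7 had 14.9, 22.4, 40.5 and 7.22 CPM in depleted cells, against 67.6, 76.7, 90.3 and 57.2 CPM in control cells, without overlap and without passing (log2 change -1.76, SE 0.56, adjusted p = 0.0905; DESeq2 gave 0.0321 and leaving out depleted library 3 gave 0.0345). The change in muscle differed from that in skin by 3.23 (SE 0.68, adjusted p = 0.00252), and that in bone from muscle by -2.86 (SE 0.79, adjusted p = 0.0166).

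Il1rn (chromosome 2, 24336853 to 24351494, plus strand), the antagonist, went in opposite directions in muscle and bone. In muscle at day 7 it had 337, 641 and 532 CPM in depleted cells, against 163, 199 and 194 CPM in control cells (log2 change 1.44, SE 0.20, adjusted p = 0.000175). In bone at day 7 it had 53.7, 44.9, 71.5, 20.2 and 27.6 CPM in depleted cells, against 232, 115, 176, 212 and 116 CPM in control cells (log2 change -1.98, SE 0.32, adjusted p = 0.000425). Muscle and bone thus lay on opposite sides of their controls with no overlap in either. In bone at day 10 Il1rn had 67.5, 81.7 and 62.2 CPM in depleted and 170, 223 and 342 CPM in control cells (log2 change -1.79, SE 0.42, adjusted p = 0.00963). Skin at day 7 had 295, 326, 295 and 322 CPM in depleted and 451, 560, 469 and 495 CPM in control cells (log2 change -0.66, SE 0.13, adjusted p = 0.00172). These 4 calls held with each library left out. Tested directly at day 7, the change in bone differed from that in muscle by -3.41 (SE 0.37, adjusted p = 1.71e-07; 8.28% of all 14340 genes passed) and from that in skin by -1.29 (SE 0.33, adjusted p = 0.00833; 9.37%). The change in muscle differed from that in skin by 2.12 (SE 0.37, adjusted p = 0.000216; 2.78%).

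The higher Il1rn of muscle was found at day 7 and not at day 4. Depleted muscle had 113 to 160 CPM at day 4 and 337 to 641 CPM at day 7 (log2 change of day 7 over day 4 1.88, SE 0.20, adjusted p = 4.83e-06), while control muscle had 103 to 140 CPM and 163 to 199 CPM (0.60, adjusted p = 0.0819). The depletion effect differed between the days by 1.29 in muscle (SE 0.28, adjusted p = 0.0207) and by -0.87 in skin (SE 0.18, adjusted p = 0.0155). The muscle value no longer passed without depleted library 3 or control library 2 or 3 of day 4 or control library 1 of day 7 (adjusted p = 0.0513 to 0.0568). In heart at day 7 all depleted libraries lay above the controls, with 294, 441 and 243 CPM against 205, 197 and 239 CPM, without passing (log2 change 0.61, SE 0.20, adjusted p = 0.114; DESeq2 gave 0.0420).

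**Figure D4:**
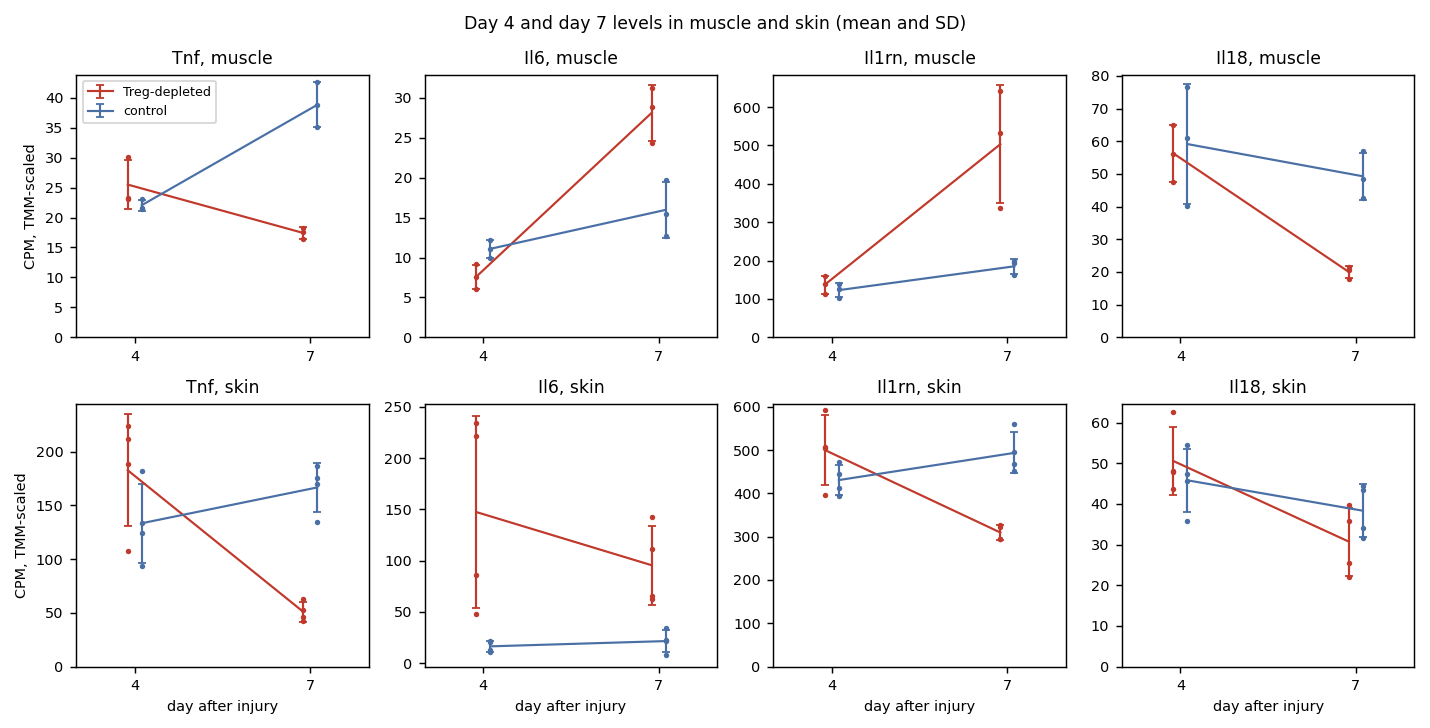
Levels of Tnf, Il6, Il1rn and Il18 in CPM (TMM-scaled) at days 4 and 7 after injury in muscle (top) and skin (bottom), with points for libraries and lines through group means with SD, red for Treg-depleted and blue for control. At day 4 in muscle the arms overlap for Tnf, Il1rn and Il18, and depleted cells lie below all controls for Il6. At day 7 in muscle the arms lie apart, with depleted cells higher for Il6 and Il1rn and lower for Tnf and Il18. In skin Il6 is apart at both days.

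Il18 (chromosome 9, 50554827 to 50581840, plus strand) was lower in depleted cells in bone and, at day 7, in muscle. Muscle at day 7 had 21.5, 20.6 and 17.8 CPM in depleted cells, against 42.5, 48.3 and 57.0 CPM in control cells (log2 change -1.29, SE 0.22, adjusted p = 0.00085). At muscle day 4 the arms overlapped at 47.5 to 65.1 CPM in depleted and 40.0 to 76.5 CPM in control cells, and the effect differed between the days by -1.22 (SE 0.30, adjusted p = 0.0371). That difference no longer passed without any 1 of 8 of the 12 muscle libraries (adjusted p = 0.0544 to 0.109): depleted 2 and 3 and control 1 and 2 of day 4, and depleted 2 and 3 and control 2 and 3 of day 7. Bone at day 7 had 10.2, 10.9, 18.4, 20.2 and 11.3 CPM in depleted and 29.2, 22.5, 31.2, 45.3 and 27.9 CPM in control cells (log2 change -1.14, SE 0.33, adjusted p = 0.0174). At bone day 10 the values were 5.83, 5.43 and 11.1 CPM in depleted and 24.5, 8.33 and 46.8 CPM in control cells, with an overlap (log2 change -1.80, SE 0.48, adjusted p = 0.0144, but 0.0691 without depleted library 1 and 0.104 without control library 3). In skin and heart Il18 had log2 changes of -0.31 to 0.30 and did not pass. Il18 overlaps Bco2 and Tex12 on the other strand.

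The genes that cut and release IL-1 and IL-18 went both ways. Of 10 such genes, 4 were higher in heart at day 4, 3 higher and 2 lower in bone at day 7, 2 higher in muscle at day 7, and 2 higher and 2 lower in skin at day 7. Pycard, the inflammasome adaptor, was higher in depleted cells in bone at day 7 (log2 change 0.64) and day 10 (0.53), in muscle and skin at day 7 (0.60 and 0.83) and in heart at day 4 (0.45). Gsdmd, which encodes the pore protein gasdermin D, was higher in heart at days 4 and 7 (0.86 and 0.61), muscle at day 7 (0.63) and skin at day 4 (0.64), and Casp1, the protease, was higher in heart at day 4 (0.93) and skin at day 7 (0.59). Ninj1, which ruptures the membrane of dying cells, was lower in bone at days 7 and 10 (-1.71 and -1.31) and skin at day 7 (-0.47), and the sensor Nlrp3 was lower in skin at day 7 (-1.07). Among 10 receptors and decoys of the family none was lower in any comparison. Il18bp, the IL-18 binding protein that neutralises IL-18, was higher in heart at day 4 (2.84) and skin at days 4 and 7 (1.34 and 1.47), and Il18rap, a chain of the IL-18 receptor, was higher in bone at days 7 and 10 (2.14 and 1.65), muscle at day 7 (1.5) and skin at day 4 (1.64). Il1rl1, the receptor for IL-33 that mast cells and basophils carry, was higher in muscle at day 7 (1.62) and skin at day 4 (1.68), and the decoy Il1r2 was higher in muscle at day 7 (1.5) and bone at day 10 (1.18).

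Il12b (chromosome 11, 44400063 to 44414033, plus strand) had few counts. Bone at day 7 had 3.76, 2.33, 0.404, 2.03 and 0 CPM in depleted cells, against 6.94, 4.51, 5.52, 13.3 and 1.74 CPM in control cells (log2 change -1.86, SE 0.56, adjusted p = 0.0192, but 0.0671 without control library 4). At bone day 10 the depleted libraries had 1.71, 3.39 and 3.81 CPM, all below the controls at 7.30, 14.8 and 13.3 CPM, without passing (log2 change -1.95, adjusted p = 0.0636). It passed with the replicate number as a block (0.0212), with DESeq2 (adjusted p = 0.0303) and without the filter (0.00206). In heart the values were uneven: day 7 had 16.4, 5.99 and 2.36 CPM in depleted cells, against 1.67, 2.40 and 1.23 CPM in control cells (log2 change 2.25, SE 0.81, adjusted p = 0.165). In muscle the level was higher at day 7 than at day 4 in both arms, by 2.27 in depleted cells (adjusted p = 0.00304) and by 3.29 in control cells (adjusted p = 0.00108), where 19.4% and 7.24% of all genes passed. Markers of dendritic cells, another source of p40, were lower in depleted bone: their sum over 8 genes was 13.8 to 39.5 CPM in depleted and 85.7 to 110 CPM in control cells at day 7. By bone day 10 the sums were 39.3 to 56.8 CPM in depleted and 149 to 229 CPM in control cells, and their part in the Il12b values was not tested. The sums were also lower without overlap where Il12b was not: in muscle at day 7, at 83.9 to 106 CPM in depleted and 151 to 188 CPM in control cells (Il12b log2 change 0.08), and in heart at day 4, at 14.6 to 27.8 CPM in depleted and 48.3 to 55.1 CPM in control cells (Il12b log2 change 2.51, adjusted p = 0.182).

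The genes that end cytokine signals and remove cytokine messages were lower, never higher, where they passed. Of 9 such genes, 6 were lower in depleted bone at day 7, 4 at bone day 10, 5 in skin at day 7, 2 in heart at day 7 and 1 in muscle at day 7, with 0 in heart at day 4, muscle at day 4 and skin at day 4. Zfp36, which encodes tristetraprolin, was lower in bone at days 7 and 10 (log2 change -0.95 and -0.69), skin at day 7 (-0.78) and heart at day 7 (-0.67). Nfkbia, the inhibitor of NF-kappaB, and Tnfaip3, the deubiquitinase A20, were lower in bone at day 7 (-1.01 and -0.90), bone at day 10 (-1.02 and -0.73) and skin at day 7 (-1.33 and -1.44). Dusp1, a phosphatase that ends MAP kinase signals, was lower in bone at days 7 and 10 (-2.11 and -1.78), skin at day 7 (-0.92) and heart at day 7 (-0.65), and Dusp2, a relative, in muscle and skin at day 7 (-1.34 and -1.05). Among 12 genes of the Toll-like receptor pathway, Cd14 was lower in bone at days 7 and 10 (-1.46 and -1.05), and Tlr2, Tlr7, Tlr1 and Tlr3 were lower in muscle at day 7 (-1.46, -1.97, -1.15 and -2.49), with Tlr2 lower at day 7 in bone (-0.50) and skin (-0.61) too. Early response genes, which tissue dissociation can induce, were lower in the same comparisons and also in heart and muscle at day 4. Of 18, 16 were lower in bone at day 7, 13 at bone day 10, 12 in skin at day 7, 7 in heart at day 7, 5 in muscle at day 7, 3 in heart at day 4, 2 in muscle at day 4 and 0 in skin at day 4. Their summed level was 1948 to 2988 CPM in depleted and 4961 to 6956 CPM in control bone at day 7, and 5168 to 8697 CPM in depleted and 9719 to 12738 CPM in control skin at day 7. Dusp1 and Zfp36 stand in both lists, and the part of these genes in the lower cytokine values was not tested.

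The ratio of antagonist to agonist within a library was compared by an exact permutation test, two-sided. Il1rn to Il1b stood at 2.46 in depleted and 0.584 in control muscle at day 7, a difference of 2.07 on the log2 scale without overlap (exact p = 0.1, the smallest that 3 against 3 allows). In bone the ratio was lower in depleted cells: 0.365 against 0.846 in control cells at day 7 (log2 difference -1.21, exact p = 0.0159) and 0.426 against 1.19 at day 10 (-1.48, exact p = 0.1). In heart at day 7 it was 0.582 in depleted and 0.299 in control cells, without overlap (0.96, exact p = 0.1). In skin it was 0.395 in depleted and 0.366 in control cells at day 7 (0.11, exact p = 0.686). The ratio of Tnf to Il10 in skin at day 4 was 29.1 in depleted and 10.2 in control cells (log2 difference 1.52, exact p = 0.0286, the smallest that 4 against 4 allows), while in skin at day 7, where both genes were lower, it was 18.0 and 14.4 (0.32, exact p = 0.486). Tnf to Il10 was also higher without overlap in depleted heart at day 4, at 5.13 against 2.50 in control heart (1.04, exact p = 0.1), and in depleted bone at day 10, at 13.7 against 5.85 in control bone (1.23, exact p = 0.1). Over the 16 comparisons no ratio passed after Benjamini-Hochberg adjustment, and the lowest adjusted p was 0.229.

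**Figure D5:**
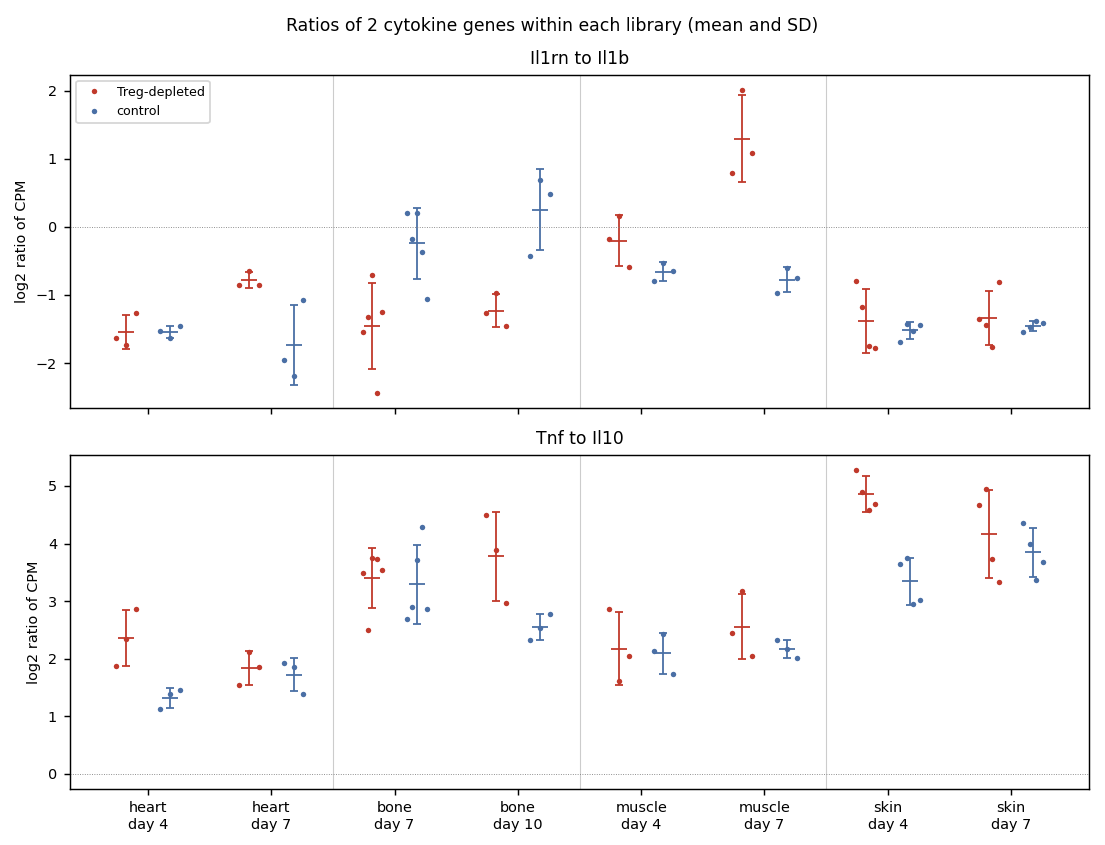
Log2 ratio of Il1rn to Il1b (top) and of Tnf to Il10 (bottom) in CPM within each library, with a pseudocount of 0.5 CPM, red for Treg-depleted and blue for control, and bars for mean and SD. The ratio of Il1rn to Il1b lies above all controls in depleted muscle and heart at day 7 and below them in depleted bone at day 10, and the ratio of Tnf to Il10 lies above all controls in depleted skin and heart at day 4 and bone at day 10.

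Control cells of the tissues differed in most of these genes, as seen in the fit that bone, muscle and skin share. At day 7, 7 members passed between control bone and control skin, all lower in bone (25.6% of all genes passed): Il1a by -4.08 on the log2 scale (SE 0.45), Il1b by -2.76 (SE 0.22), Tnf by -2.63 (SE 0.24), Osm by -2.36 (SE 0.15), Il10 by -2.21 (SE 0.39), Il6 by -1.88 (SE 0.40) and Il1rn by -1.53 (SE 0.23). Muscle lay below skin for 5 of them, all but Il10 and Il6 (11.9% of all genes passed), and at day 4 for 6, with Il10 again among them (12.3%). Between bone and muscle 2 members passed at day 7 (13.6% of all genes): Il10 at 2.34 ± 0.865 CPM in bone and 8.30 ± 1.47 CPM in muscle (log2 change -1.78, SE 0.42), and Il6 at 5.89 ± 1.85 CPM in bone and 16.0 ± 3.5 CPM in muscle (-1.42, SE 0.44; mean ± SD, n = 5 and 3). The Il6 value was lost without bone library 1 or muscle library 1 or 3 (adjusted p = 0.0570 to 0.104). Il18 and Il12b did not pass between tissues in control cells. For both genes that depended on the setting. Il12b of bone over skin passed with the replicate number as a block (adjusted p = 0.0438), without the filter (0.0302) and without skin control library 2 (0.0184). Il12b of muscle over skin passed without the filter (0.0172) and without that library (0.0277). Il18 of bone over muscle passed without the filter (0.0278) and without bone control library 4 (0.0482). Il1b of bone over muscle did not pass (0.0528). It did so with DESeq2 (0.0460), without the filter (0.000755) and without bone control library 4 or 5 (0.0202 and 0.0461). In depleted cells the order of Il6 group means was skin day 4 (147 CPM), skin day 7 (95.4), bone day 10 (43.9), muscle day 7 (28.1), bone day 7 (17.2) and muscle day 4 (7.60). In control cells it was skin day 7 (21.5), skin day 4 (16.4), muscle day 7 (16.0), muscle day 4 (11.1), bone day 10 (8.37) and bone day 7 (5.89). The depletion effect on Il6 differed between muscle and skin at day 4, by -3.69 (SE 0.60, adjusted p = 0.00112), where 0.265% of all genes passed.

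Between days within an arm, Il1rn was lower at day 7 than at day 4 in infarcted heart, and Il1b was so in depleted cells. In depleted heart Il1b had 532, 689 and 437 CPM at day 7, against 1517, 1292 and 1438 CPM at day 4 (log2 change -1.36, SE 0.19, adjusted p = 0.00016; 27.3% of all genes passed). In control heart Il1b had 794, 904 and 505 CPM at day 7, against 923, 1058 and 1076 CPM at day 4, which did not pass (-0.47, adjusted p = 0.0679), and neither did the difference between the arms (-0.88, adjusted p = 0.085; 4.09% of all genes). Both depended on the setting: DESeq2 gave adjusted p = 0.0434 for control heart and 0.0284 for the difference, and without the filter both passed (0.0039 and 1.09e-05). Il1rn was lower at day 7 in both arms, by -0.59 in depleted and -0.71 in control heart (31.8% of all genes passed in control heart), and each call was lost without some library (adjusted p = 0.056 to 0.146). Control heart at day 7 was also above day 4 for Tnf (0.47, adjusted p = 0.0179) and below it for Il6 (-1.24, adjusted p = 0.0464). The Tnf call was lost without WT3 of day 7 or W1 or W4 of day 4 (adjusted p = 0.0528 to 0.145), and the Il6 call without WT1 or WT4 of day 7 or W1 or W4 of day 4 (adjusted p = 0.0764 to 0.205). Depleted muscle at day 7 was above day 4 for Il6 (log2 change 1.89, SE 0.23, adjusted p = 1.37e-05) and Il1a (2.19, SE 0.36, adjusted p = 0.000228) and below it for Il18 (-1.48, SE 0.22, adjusted p = 8.14e-05), while control muscle was above for Tnf (0.82, SE 0.17, adjusted p = 0.00554) and Il1b (0.72, SE 0.16, adjusted p = 0.0111). Depleted muscle was also above for Osm (0.66, adjusted p = 0.0115) and below for Tnf (-0.54, adjusted p = 0.0385), besides Il1rn and Il12b given above. Osm was lost with some library left out (adjusted p up to 0.0863). Tnf was lost so too (up to 0.188), and with RLE (0.0501) and without the filter (0.106). The control Il1b call was lost without control library 1 or 2 of day 4 (adjusted p = 0.0554 and 0.0591). Depleted skin at day 7 was below day 4 for Tnf (-1.81, SE 0.22, adjusted p = 3.92e-05), Il1rn (-0.66) and Osm (-0.70), where 2.62% of all genes passed. The Osm call (adjusted p = 0.0232) was lost without depleted library 3 or 4 of day 4 or 1 or 3 of day 7 (adjusted p = 0.0541 to 0.0931). Control skin had 0 members passing between days (2.27% of all genes by edgeR; 1 member had an unadjusted p under 0.05 and DESeq2 called 0) and control bone also 0, where 0.0393% did so (by edgeR, with 1 member under an unadjusted p of 0.05 and 0 by DESeq2).

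Over the 12 group means of bone, muscle and skin, Tnf and Il1b ran together (Pearson r of log2 levels 0.96), as did Il1b and Osm (0.95), and Il10 and Il18 (0.84). Il6 stood apart from Tnf (0.36) and Il10 (-0.14). The genes most like Il6 were Lama5 (0.93), Ddx54 (0.92) and Il13 (0.92), a cytokine that basophils and mast cells make. For Il10 they were Impact, Chd3 and Gm6377 (0.95, 0.95 and 0.94), and for Tnf Marcksl1, Prdm1 and 4930589L23Rik (each 0.97). The 12 means come from 1 deposited table and 1 scaling, and these values describe them and carry no test. With a pseudocount of 0.5 CPM added, Lama5, Il13 and 4930589L23Rik stood at 0.561, 0.5 and 0.602 CPM in their lowest groups. Their correlations thus rest in part on values at or near the floor.

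Depth per library, as the sum of its counts, spanned 2318223 to 5835064 for bone and 3013740 to 5392902 for skin. Muscle libraries held 3439649 to 6397377 counts and heart libraries 2642452 to 9788811. All 10 macrophage and monocyte markers were present in every group, with sums of 8253 to 34954 CPM, and 6 of the 10 were lower in depleted bone at day 7, with 4 lower and 2 higher at day 10. Of 14 neutrophil markers, 8 were higher in depleted bone at day 10 and 6 in depleted muscle at day 7, their sum being 17718 to 32354 CPM in depleted and 5186 to 9610 CPM in control bone at day 10, and 1113 to 2933 CPM in depleted and 198 to 243 CPM in control muscle at day 7. T and NK cell markers summed to 185 to 392.3 CPM in depleted and 81.7 to 127 CPM in control bone at day 7, with 9 of 14 called higher. The part of these cells in the cytokine values was not tested. Ribosomal RNA (Rn18s-rs5) was higher in depleted bone, at 70694 ± 22614 CPM against 35370 ± 28679 CPM in control bone at day 7 (SD, n = 5 each). By day 10 it was 84925 ± 18734 CPM in depleted and 19709 ± 4010 CPM in control cells (SD, n = 3 each). With it as a covariate, Il6 (1.64, adjusted p = 0.00622), Tnf (-1.63, adjusted p = 0.0166), Il1rn (-2.16, adjusted p = 0.00528) and Il1a (-2.13, adjusted p = 0.0389) still passed in bone at day 7 and Il6 at day 10 (2.57, adjusted p = 0.0282). Il10 did not (-1.38 and -1.91 at days 7 and 10, adjusted p = 0.295 and 0.427). Il1b (-0.88, adjusted p = 0.0811), Il18 (-1.28, 0.0765) and Il12b (-1.93, 0.105) of day 7 no longer passed either. Nor did Il1rn (-2.05, 0.118) and Il18 (-2.05, 0.163) of day 10. Apart from Il10, the log2 changes of the lost calls were at least as large as without the covariate. At day 10 ribosomal RNA did not overlap between the arms, at 63994 to 100120 CPM in depleted and 16050 to 23995 CPM in control cells. There the covariate and the arm cannot be told apart. In heart at day 4, 85 ribosomal protein genes summed to 23144 to 27853 CPM in depleted and 63508 to 73296 CPM in control libraries, which stands apart from 20230 to 26078 CPM in the 6 libraries of day 7. The part of these differences in the heart values was not tested.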

How the data were processed

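Counts per gene were deposited by the authors in 2 tables, one for heart (52636 genes) and one for bone, muscle and skin (57010 genes). Per the labels' protocols, 3′ libraries with molecular identifiers were made from oligo-dT-primed RNA. Per the submitters' processing notes STAR, Salmon and featureCounts were used for heart with GRCm38, and STAR and featureCounts for the others, with GRCm38 and GRCm39 both listed. Whether identifiers were collapsed or strand was used is not given in the sources used here. As deposited by the authors, bone, muscle and skin values are estimated counts, 19.4% of the non-zero ones being more than 0.01 from a whole number, and were rounded.

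Libraries were grouped by their labels, and heart columns without a day in their name were assigned to day 7 by elimination. The labels do not say that libraries came from separate mice, so p-values may measure technical spread. All 9 members and the gene lists were chosen with earlier results of these data known. Genes were filtered with filterByExpr, scaled by TMM and tested by edgeR 4.0.16 (quasi-likelihood, robust; R 4.3.3) in 1 fit per tissue and 1 fit over bone, muscle and skin, giving 28 comparisons, with Benjamini-Hochberg adjustment over all genes and a threshold of 0.05. Heart was never fitted with the others. Standard errors were taken as the log2 change divided by the root of its F statistic. Tested on simulated data, 39 to 64% of genes changed 2-fold and 80 to 91% of those changed 4-fold were found in the depletion comparisons. Alternatives were RLE scaling, no filter, DESeq2 1.42.0, the replicate number as a block, Rn18s-rs5 as a covariate in bone, and each library left out. Named genes were the members and, of each list, up to 4 genes with the smallest adjusted p per comparison, plus others named for their role after their values were seen. The limit beside a count of 0 covers counting error only; the 95% interval of a log2 change is taken from its standard error, which includes the spread between libraries.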

Additional observations from a re-analysis of the deposited data

Results flagged for a closer look

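In 3 of 54 groups of 4 or 5 libraries, counted for each member, a single library stood far from the rest of its group, where chance gives about 1 in 20. Tnf stood at 41.7 CPM in control library 4 of bone day 7, Il6 at 9.49 CPM in depleted library 3 of bone day 7 and Osm at 27.5 CPM in control library 5 of bone day 7.

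The depletion effect differed between days by edgeR's test of the difference, day 7 minus day 4 on the log2 scale. In muscle the differences were -1.37 for Tnf, 1.36 for Il6, 1.29 for Il1rn and -1.22 for Il18. With each of the 12 muscle libraries left out in turn, Tnf passed in 12 fits, Il1rn in 8, Il6 in 5 (adjusted p up to 0.0861) and Il18 in 4 (up to 0.109). In skin they were -2.14 for Tnf and -0.87 for Il1rn.

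The effect also differed between tissues. At day 7 bone minus muscle gave -3.41 for Il1rn and -2.86 for Il1a, bone minus skin gave -1.29 for Il1rn, and muscle minus skin gave 2.12 for Il1rn and 3.23 for Il1a. At day 4 muscle minus skin gave -3.69 for Il6 and -0.99 for Osm. The Osm difference (adjusted p = 0.0476) passed in 3 of 14 fits with a library left out, those without depleted muscle library 1, depleted skin library 1 or control skin library 2, and its adjusted p was 0.061 to 0.161 in the others.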

How the results depend on the processing

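No called value of a member changed sign under any setting tried. Of 26 called depletion effects, 15 passed with each library left out and 17 under every other setting. The number of members passing moved as follows, with the reported number in brackets. Heart day 4 (0) gave 1 with RLE, 4 without the filter, 1 with DESeq2 and 0 to 1 with a library left out, and heart day 7 (0) gave 2, 1 and 0 to 1 for the last 3 settings. The heart difference between days (0) gave 2 without the filter, 1 with DESeq2 and 0 to 2 with a library left out. Between days, depleted heart (2) gave 1 to 2 and control heart (3) gave 0 to 3 with a library left out. Bone day 7 (8) gave 4 and bone day 10 (4) gave 1 with Rn18s-rs5, and day 10 gave 2 to 4 with a library left out. Depleted bone between days (1) gave 3 without the filter, and depleted skin (3) gave 5 without the filter and with DESeq2. With a library left out, muscle day 7 (7) gave 4 to 7, its difference between days (4) 1 to 5, skin day 7 (5) 3 to 6 and its difference (2) 2 to 4. Control bone over muscle (2) gave 4 without the filter and 1 to 4 with a library left out, and the bone minus skin effect (1) gave 2 and 1 to 2. The skin day 4 ratio of Tnf to Il10 (1.52) ranged over 1.38 to 1.65, where 3 against 4 cannot pass. Over all genes, Rn18s-rs5 gave 1348 calls at bone day 7 (2994) and 111 at day 10 (2182). Counts over all genes without the filter and with DESeq2 were 754 and 618 at heart day 7 (356), 190 and 93 at muscle day 4 (20, and 34 with the block), 176 and 61 in control bone between days (5), 632 and 509 in depleted skin (330) and 514 and 457 in control skin (286). For the depletion effect between days they were 166 and 201 in bone (0), 583 and 490 in muscle (311) and 319 and 264 in skin (107), and for muscle minus skin at day 4 they were 224 and 90 (38). Without the filter skin day 4 gave 719 (450) and muscle minus skin at day 7 gave 629 (398).

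Same-numbered libraries deviated together with correlations of -0.134 to 0.195 and share only a number. With the number as a replicate block the muscle minus skin effect of day 4 had 1 member passing, against 2 without it. The block ended the calls of Il6 between days in muscle (adjusted p = 0.0614), Il1b at skin day 7 (0.0605) and Osm for muscle minus skin at day 4 (0.105), and added Il12b at bone day 10 (0.0212) and in control bone over skin (0.0438). No paired analysis was possible for heart because its columns carry no number from the labels.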
